A study of Mus musculus with 10 samples.

Results

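Nanog, the homeodomain transcription factor of naive pluripotency, was followed through an m6A immunoprecipitation study of J1 mouse embryonic stem cells. It was chosen by name as 1 of the 30419 genes in the window files, and no measured value entered the choice. The study held 10 libraries in 5 pairs, each pair an anti-m6A immunoprecipitation (IP) of fragmented RNA and the input RNA it was taken from. There were 2 pairs from cells labelled mettl3 KO, 2 pairs from cells labelled mettl3 WT, and 1 earlier pair, called here the first pair, whose labels name the same strain and cell type and no genotype. All cells were J1 cells grown without feeder cells. The growth notes also describe differentiation on withdrawal of the cytokine LIF, while every library is labelled as embryonic stem cells. The labels do not say how the knockout was made, which part of Mettl3 was altered, how many clones were used, or whether replicates are separate cultures. The p-values below therefore cover library-to-library spread alone, and that spread may be technical.

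Nanog protein binds DNA with Oct4 (Pou5f1) and Sox2 at the enhancers of embryonic stem cells and holds them in the self-renewing state that LIF maintains. Its level falls as the cells leave naive pluripotency. N6-methyladenosine (m6A) is a methyl mark on adenosines inside mRNA, placed during transcription by a nuclear complex whose catalytic subunit is Mettl3 with its partner Mettl14. The mark is typically found in long exons and near stop codons, and one of its known effects is to shorten the life of the mRNA that carries it.

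The deposited window files divide the exons of each gene into windows of about 49 bases (median over the 2878 single-exon genes, since the width is not stated) and give a scaled coverage of IP and of input in each window. They also give a window score, winscore, the log2 of IP over its gene median divided by input over its gene median, with 1 added to each term. Nanog lies on the plus strand of chromosome 6 and has 29 windows in 4 exons, with 8, 6, 2 and 13 windows in 5′ to 3′ order. The files mark neither coding sequence nor UTRs, so positions are given as exon and window. No other RefSeq gene overlaps Nanog. The pseudogenes Nanog-ps1 and Nanog-ps2 lie on other chromosomes and are not among the gene names of the files. The column names of the first pair's file say that unique reads were counted, and how reads shared with these copies were handled in the other files is not given in the sources used here.

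The IP libraries differed in depth. The smallest coverage step of each library puts IP depth at 0.0644 and 0.0606 of the first IP in the KO libraries and at 0.159 and 0.0712 in the WT libraries, and input depth at 0.516 and 0.284 in KO and 0.438 and 0.457 in WT. Windows with no IP coverage made up 74.3% and 67.6% in KO, 50.5% and 65.4% in WT and 32.0% in the first IP. Nanog had an IP coverage above 0 in every window, the lowest being 1.28 in KO 1, in window 1 of exon 4. Mettl3 had an input coverage of 3.14 and 3.38 in KO libraries, against 4.79 and 4.67 in WT libraries and 12.9 in the first input. Its log2 level fell by 0.43 in KO (limma SE 0.072, adjusted p = 0.00259), and the transcript was still present there. All 7 embryonic stem cell markers looked up passed the coverage filter, with summed input coverages of 2016 and 1895 in KO, 2493 and 2566 in WT and 2155 in the first input. Dppa5a alone made up 1121 and 1029 of these sums in KO and 1525 and 1539 in WT. Of the 7 markers, 2 were called lower, 1 higher and 4 neither, against 13.6% called lower and 13.0% higher over all genes tested. Of 6 fibroblast and feeder markers, 5 stayed under 1 in all 5 inputs and Lum was at 0 in each, with sums of 2.72 and 2.41 in KO, 2.85 and 2.52 in WT and 8.69 in the first input. Of 6 markers of primitive endoderm and trophoblast, 5 stayed under 1 in all 5 inputs, with sums of 0.695 and 0.855 in KO, 0.854 and 1.34 in WT and 3.41 in the first input.

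The Nanog transcript was less abundant in the KO inputs. Its mean input coverage was 166 and 151 in the KO libraries, against 198 and 206 in the WT libraries, and 226 in the first input. Both KO values lay below both WT values, and the KO mean was 159 ± 10.9 against a WT mean of 202 ± 5.12 (SD, n = 2 each). In the scaling of the files the order was KO 2, KO 1, WT 1, WT 2 and first input. Neighbours within KO and within WT are replicates of 1 group. Total input coverage was larger in the first input, at 14060518, against 10275161 and 10213556 in KO and 10122554 and 10428352 in WT. Summed Nanog input, scaled to the same total in every library, was 469 and 428 in KO and 568 and 572 in WT. In the first input it was 465, between the KO values and below both WT values. On the scale of log2(coverage + 1), Nanog fell by 0.35 (limma SE 0.075, adjusted p = 0.00894 over 11211 genes). With no filter on low genes, over 30419 genes, the change was the same and did not pass (limma adjusted p = 0.201). In the same fit 13.6% of genes were called lower and 13.0% higher in KO, the median change of all genes was −0.0048, and 6.07% of genes had a lower change than Nanog. Groups that did not overlap, with KO lower, were found in 34.0% of genes. The cells were lysed in bulk, so fewer cells with Nanog and less Nanog RNA per cell cannot be told apart.

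The fall was of similar size in the 4 exons. Input coverage was lower in both KO libraries than in both WT libraries in 26 of 29 Nanog windows and higher in none, against 24.4% of all windows with a mean input of at least 5 that were lower and 20.0% that were higher. The ratio of mean KO input to mean WT input was 0.782 in exon 1, 0.804 in exon 2, 0.812 in exon 3 and 0.779 in exon 4. No exon therefore stood apart from the others in its input, while single windows varied more. In window 1 of exon 1, for example, input was 135 and 148 in KO, against 201 and 204 in WT. In window 3 of exon 4 it was 99.8 and 92.1 in KO, against 89.6 and 106 in WT, and the groups overlapped. Windows of 1 gene are not independent.

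The deposited RPKM table gave the other direction for Nanog. Its columns labelled as inputs list 334 and 277 RPKM for KO, against 217 and 223 RPKM for WT and 254 RPKM for the first pair. On the scale of log2(RPKM + 1) Nanog was 0.47 higher in KO (limma adjusted p = 0.0314), where the median change of all genes was 0.28. Across 12256 genes the KO RPKM columns correlated with the KO input coverage of the same replicate at r = 0.697 and 0.721 and with its IP coverage at r = 0.955 and 0.973. The WT columns correlated with their own input coverage at r = 0.994 and 0.994, and the first column with its input at r = 0.993. These correlations are across genes, which are not independent replicates. The RPKM columns labelled KO input thus followed the KO IP tracks, and input coverage from the window files is used as the transcript level throughout.

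**Figure D1:**
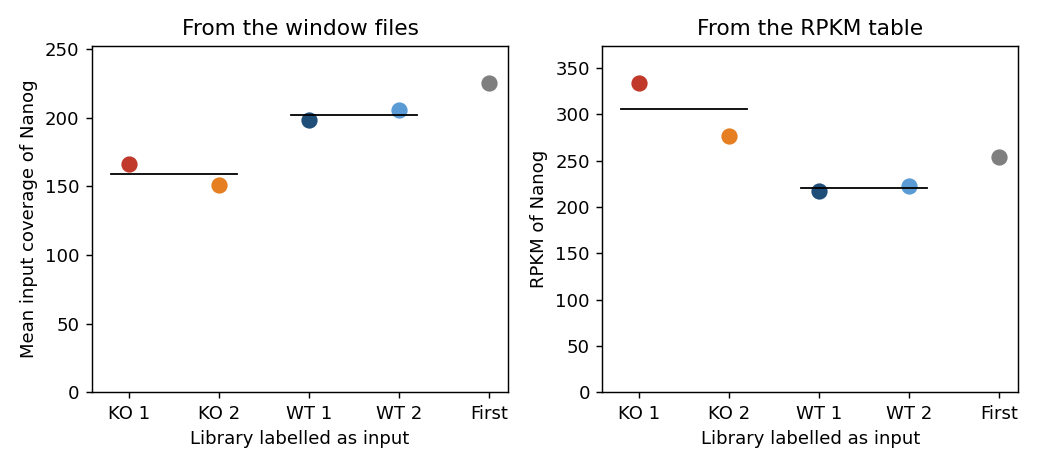
Nanog level in each library labelled as input, as mean input coverage per window in the window files (left) and as RPKM in the deposited table (right), with points for libraries and lines for group means. In coverage both KO libraries (166 and 151) lie below both WT libraries (198 and 206), while in RPKM both KO columns (334 and 277) lie above both WT columns (217 and 223).

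The m6A signal of Nanog was concentrated in exon 4, its last exon. IP coverage over input coverage in exon 4 was 2.40 and 2.32 in KO libraries, against 4.73 and 4.59 in WT libraries, and 4.62 in the first pair. The mean was 2.36 ± 0.060 in KO and 4.66 ± 0.11 in WT (SD, n = 2 each), and the groups did not overlap. In exons 1, 2 and 3 the same ratio stayed under 1 in every pair.

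Exon 1 gave 0.960 and 0.626 in KO against 0.511 and 0.457 in WT, with both KO values above both WT values. Exon 2 gave 0.377 and 0.452 in KO against 0.591 and 0.513 in WT, with both KO values below. Exon 3, of only 2 windows, gave 0.384 and 0.191 in KO against 0.210 and 0.259 in WT, and there the groups overlapped. The first pair gave 0.661, 0.604 and 0.856 in exons 1, 2 and 3. It lay between the KO values in exon 1 and above all KO and WT values in exons 2 and 3. For KO against WT, the IP alone showed the same ordering of exons. Mean KO over mean WT IP coverage was 1.28 in exon 1, 0.595 in exon 2, 1.00 in exon 3 and 0.395 in exon 4. Exon 4 held 75.5% and 78.8% of the Nanog IP coverage in KO, 88.9% and 90.8% in WT and 78.2% in the first IP, while its share of the input was 48.4% and 46.7% in KO, 46.4% and 49.5% in WT and 33.4% in the first input.

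**Figure D2:**
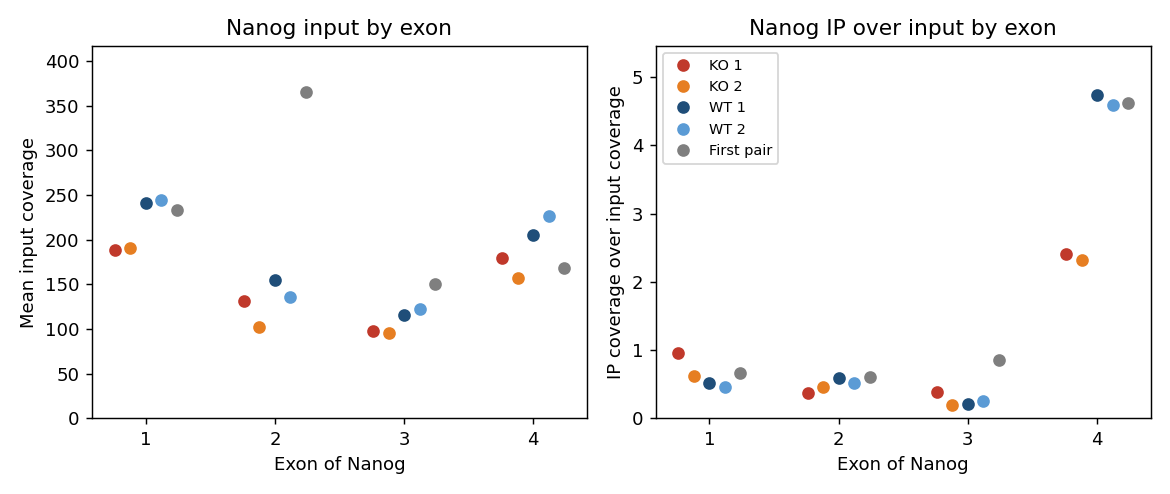
Mean input coverage (left) and IP over input coverage (right) in each of the 4 Nanog exons, with 1 point per pair. In input the 2 KO points lie below the 2 WT points in every exon, while in IP over input exon 4 separates KO (2.40 and 2.32) from WT (4.73 and 4.59) and exons 1 to 3 stay under 1.

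Within exon 4 the IP of every pair was highest at window 8 or 9, and the first IP had a further rise in windows 2 to 5 with a dip to 238 in window 6. The highest IP coverage was 1270.3 and 1074 in KO, both in window 9, against 2891 in window 8 and 3439 in window 9 in WT, and 2127 in window 8 in the first IP. Input coverage at the summit was 335 and 267 in KO, 335 and 388 in WT and 431 in the first input. The summit was therefore in the same place in KO and WT and lower in KO, while input there differed less.

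The 5′ flank of this summit held the largest KO minus WT differences of the gene. In windows 1 to 4 of exon 4, a stretch chosen after its values were seen, mean IP coverage was 53.8 and 103 in KO, against 422 and 423 in WT and 1088 in the first IP. Input over the same windows was 124 and 116 in KO, 134 and 140 in WT and 259.8 in the first input. Averaged over these 4 windows, IP was thus below input in both KO pairs and above it in the other pairs. The ratios were 0.434 and 0.890 in KO, 3.14 and 3.02 in WT and 4.19 in the first pair. Windows outside enriched regions also had a median ratio under 1 in every pair. A ratio under 1 is therefore not by itself a lack of enrichment.

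The log2 ratio was then centred on windows outside enriched regions. In windows 1 to 4 it was −0.19 and 0.78 in KO, 2.61 and 2.70 in WT and 2.97 in the first pair. KO 2 was thus above the level of windows outside regions, and KO 1 was below it. The KO minus WT difference on this scale was −2.36 there, −0.85 in windows 5 to 7 and −1.10 in windows 8 to 10. In windows 11 to 13 it was 0.34, with overlapping groups. These stretches carry no test. Single windows ranged from −2.89 in window 1 to −0.62 in window 6 among the first 10 windows. The value of window 1 rests partly on KO 1, whose IP coverage there was 1.28, or 47 of that library's smallest coverage steps, against 48.5 in KO 2, 109 and 71.7 in WT and 663 in the first IP. The neighbouring windows 2, 3 and 4 had differences of −2.76, −2.69 and −2.05 without such a low value: in window 3, for example, IP coverage was 72.6 and 106 in KO, against 544 and 565 in WT. The IP-weighted mean position in exon 4 was window 8.34 and 7.75 in KO, 7.45 and 7.51 in WT and 5.33 in the first IP.

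**Figure D3:**
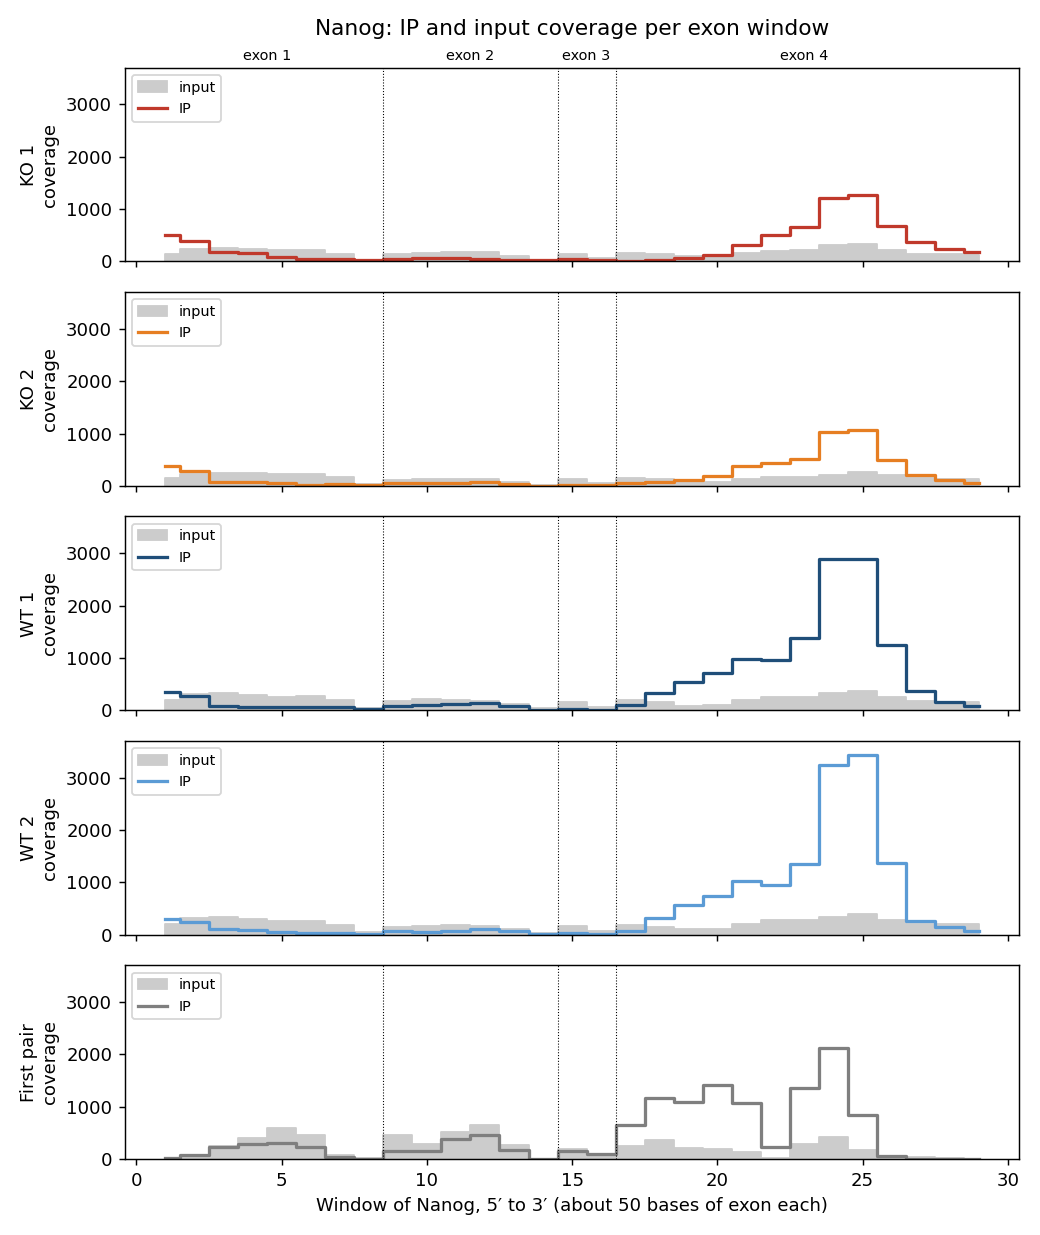
IP coverage (lines) and input coverage (grey) in each of the 29 Nanog windows from 5′ to 3′, with 1 panel per pair on the same vertical axis. The summit in exon 4 reaches 1270.3 and 1074 in KO, 2891 and 3439 in WT and 2127 in the first IP. Averaged over windows 1 to 4 of exon 4, IP is 53.8 and 103 in KO, against 422 and 423 in WT and 1088 in the first IP.

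Counted over windows, IP over input was lower in both KO pairs than in both WT pairs in 13 of 29 windows, 10 of them in exon 4 and 3 in exon 2. All windows of the series gave 28.0% in the scaling of the files and 31.1% after centring, and windows inside enriched regions gave 41.6% and 45.1%. In exon 4 the 10 windows were the first 10 of its 13. The opposite order, with both KO pairs higher, was seen in 5 of 29 windows in the scaling of the files and in 3 of 29 after centring. All were in exon 1. Over all windows the shares were 10.9% and 9.98%, so the count after centring was near the share of all windows.

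At the 5′ end of the transcript, windows 1 and 2 of exon 1 moved the other way from most of exon 4. In windows 1 and 2 of exon 1, also chosen after their values were seen, IP coverage was 452 and 332 in KO, against 308 and 266 in WT and 51.0 in the first IP. Input there was 183 and 188 in KO, 257 and 265 in WT and 24.6 in the first input. The centred log2 ratio was thus 2.31 and 1.76 in KO against 1.23 and 1.12 in WT, a difference of 0.86 without a test. In the first pair this ratio was 1.93, between the 2 KO values. In windows 3 to 8 of exon 1 it was −0.064 and −1.01 in KO, against −0.95 and −0.85 in WT, and the groups overlapped. Window 1 alone had a winscore of 2.91 and 2.31 in KO, above the threshold of 2 used for enriched regions, and of 1.40 and 1.48 in WT and 1.56 in the first pair, below it. Outside that window, winscores of at least 2 occurred in exon 4 alone, in 7 and 7 windows in KO, 8 and 8 in WT and 6 in the first pair.

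**Figure D4:**
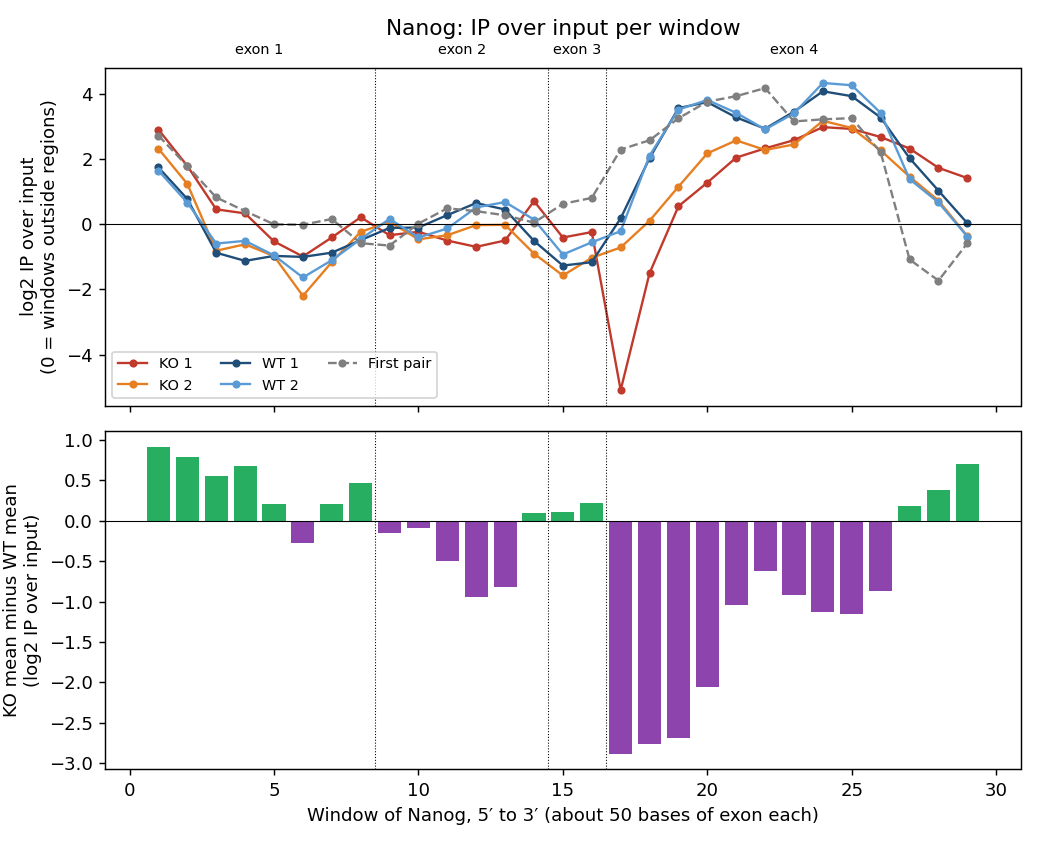
Centred log2 IP over input in each Nanog window for the 5 pairs (top) and the KO minus WT difference of the group means (bottom), from 5′ to 3′. The differences are below 0 in windows 1 to 10 of exon 4, down to −2.89, and above 0 in the first windows of exon 1.

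The KO and WT libraries resembled each other in the shape of their input, and in IP over input KO 1 stood apart from the other 3. Across the 29 windows, log2 input coverage correlated at r = 0.972 to 0.982 among the KO and WT libraries and at r = 0.250 to 0.424 between them and the first input, whose coverage dropped to 23.9 in window 6 of exon 4 and to 35.4, 32.4 and 6.66 in its last 3 windows. The log2 IP over input correlated at r = 0.749 between KO 1 and KO 2 and at r = 0.982 between WT 1 and WT 2. Between genotypes it was r = 0.597 and 0.615 for KO 1 and r = 0.929 and 0.929 for KO 2. These values include window 1 of exon 4, where KO 1 had very low IP coverage. Its uncentred log2 ratio there was −6.09, against −1.66 in KO 2 and −0.79 and −1.33 in WT. How far that window alone lowers the r of KO 1 was not tested. The first pair gave r = 0.294 and 0.683 with KO and r = 0.750 and 0.783 with WT. Windows share the gene and its fragments, so these values are descriptions with no p.

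Enriched regions were called from the first IP alone, as runs of at least 2 windows with a winscore of at least 2 in genes whose input coverage averaged at least 1 over the KO and WT inputs, which gave 9963 regions. Nanog held 2, both in exon 4: windows 3 to 6, on the 5′ flank, and windows 8 to 9, at the summit. Window 7, between them, had a winscore of 1.99 in the first pair and lay just outside the threshold, while windows 8, 3 and 9 lay just inside it with 2.06, 2.09 and 2.09. At a threshold of 1 there was 1 Nanog region, of windows 1 to 10, and at a threshold of 3 there was none.

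For the region of windows 3 to 6 the mean IP coverage was 253 and 279 in KO, against 798 and 822 in WT and 959 in the first IP. Its centred log2 IP over input was 1.87 and 2.19 in KO, against 3.29 and 3.33 in WT, and 3.65 in the first pair. Both KO values lay below both WT values and above 0, the level of windows outside regions. The difference was −1.28 (limma SE 0.47, adjusted p = 0.281 over 9475 regions). In winscore the region had 1.55 and 2.03 in KO, against 3.03 and 3.25 in WT, a difference of −1.35 (limma SE 0.63, adjusted p = 0.611).

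For the region of windows 8 to 9 the centred log2 ratio was 2.95 and 3.05 in KO, against 4.0 and 4.29 in WT, and 3.22 in the first pair. The first pair lay between the KO and WT values here, unlike in the other region. The difference was −1.15 (limma SE 0.36, adjusted p = 0.270). The winscores were 2.95 and 3.05 in KO and 3.66 and 4.14 in WT, a difference of −0.89 (limma SE 0.57, adjusted p = 0.688).

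Neither region passed the test across all regions, in either measure. In the ratio limma called 0 of 9475 regions (0%) in either direction at an adjusted p under 0.05, with 1448 regions (15.3%) lower and 134 (1.41%) higher in KO at an unadjusted p under 0.05. Lower KO groups without overlap, as in both Nanog regions, were found in 46.1% of regions, and 77.6% had a lower KO mean, with a median difference of −0.45. A lower ratio difference than that of Nanog was found in 14.2% of regions for windows 3 to 6 and in 17.8% for windows 8 to 9. In winscore limma also called 0 of 9963 regions (0%), with 485 (4.87%) lower and 324 (3.25%) higher at an unadjusted p under 0.05. There 22.0% of regions had lower KO groups without overlap, and the median difference was −0.064. Leaving out KO replicate 2 brought the ratio differences to −1.44 and −1.20 with limma adjusted p = 0.0372 and 0.0432. Leaving out KO replicate 1 gave −1.12 and −1.09, with limma adjusted p = 0.152 and 0.109. Each of these fits rests on 1 KO pair, which is taken to vary like WT.

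Over the whole gene, IP coverage averaged 256 and 207 in KO, against 489.9 and 514 in WT and 445 in the first IP. The KO mean was 231 ± 34.6 and the WT mean 502 ± 16.9 (SD, n = 2 each), without overlap. The log2 ratio of IP to input, centred on the median over genes, was 0.55 and 0.33 in KO, against 1.01 and 1.05 in WT. The difference was −0.59 (limma SE 0.19, adjusted p = 0.312), and it was −0.77 in the scaling of the files, a shift of −0.18. Of 11211 genes 0 (0%) were called in either direction, 675 (6.02%) were lower and 844 (7.53%) higher at an unadjusted p under 0.05, 20.7% had lower KO groups without overlap, and 6.34% had a lower difference than Nanog. Without KO replicate 1 the difference was −0.70, with limma adjusted p = 0.0449, and without KO replicate 2 it was −0.49, with limma adjusted p = 0.102. Here too 1 KO pair stands for its group.

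Among 15 transcription factors of the pluripotency network around Nanog, 5 transcripts fell, none rose and 10 did not pass, with a median change of −0.19, against 13.6% called lower, 13.0% called higher and a median of −0.0048 over all genes tested. Tbx3, a T-box factor of naive cells, had an input coverage of 14.0 and 12.9 in KO, against 23.9 and 24.8 in WT, and fell by 0.81 (limma adjusted p = 4.66e-05). Klf4, a Krüppel-like factor, had 50.6 and 44.3 in KO, against 68.1 and 70.9 in WT, and fell by 0.54 (limma adjusted p = 0.000968). Tfcp2l1, Prdm14 and Klf5 also fell, by 0.44, 0.33 and 0.23 on the log2 scale. Nanog's binding partners at enhancers were not among them. Pou5f1 had 252 and 248 in KO, against 246 and 260 in WT, a change of −0.018 (limma adjusted p = 0.875), and Sox2 had 148 and 145 in KO, against 162 and 176 in WT, a change of −0.20 (limma adjusted p = 0.0594).

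The m6A regions of the same network gave Nanog a place near the lower end. In 12 of the 15 genes there were 21 regions, with ratio differences between −1.66 (Nr5a2, an orphan nuclear receptor) and 0.62 (Prdm14, a PR-domain factor of pluripotent and germ cells) and a median of −0.32. KO means were lower in 19 of them, against 77.6% of all regions, and 11 had lower KO groups without overlap, against 46.1% of all regions. Only that Nr5a2 region had a lower difference than both Nanog regions, whose values were −1.28 and −1.15, while the Esrrb region in exon 3, at −1.20, lay between them. The longer Sox2 region, of 10 windows, had a centred log2 ratio of 6.47 and 6.64 in KO, against 6.59 and 6.73 in WT, a difference of −0.11 (limma adjusted p = 0.824). The Klf4 region had 6.11 and 6.10 in KO, against 6.13 and 6.29 in WT, a difference of −0.10. No test was made of the difference between Nanog and these genes.

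**Figure D5:**
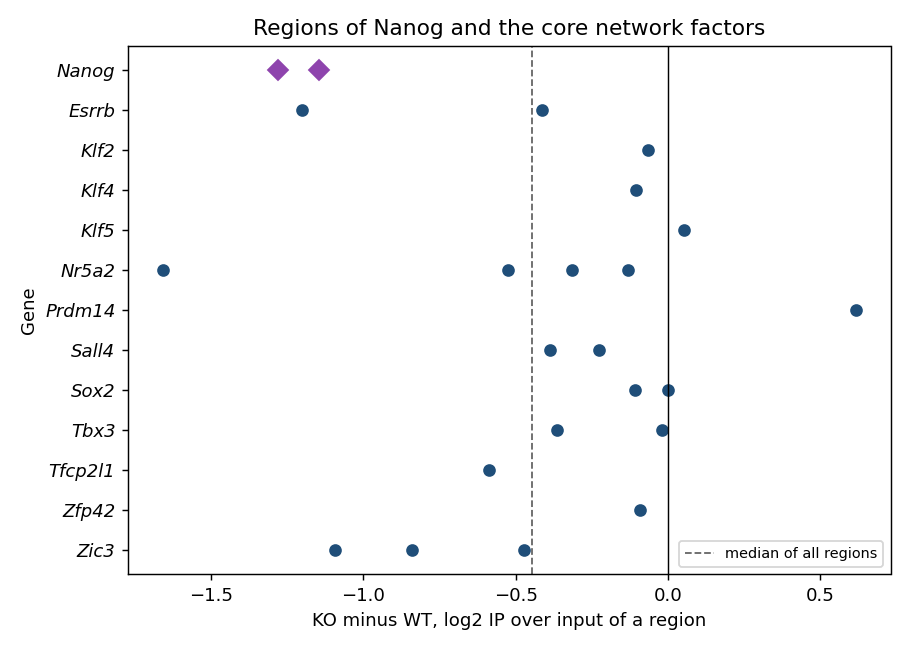
KO minus WT difference in centred log2 IP over input for each enriched region of Nanog (diamonds) and of the core network factors (circles), with the median of all regions as a dashed line at −0.45. The Nanog regions lie at −1.28 and −1.15, and those of the other genes between −1.66 and 0.62.

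Of 18 proteins known to bind Nanog or to sit in its repressor complexes, 5 transcripts fell, none rose and 13 did not pass, with a median of −0.10, beside 13.6% called lower and 13.0% called higher over all genes tested. Tet2 and Tet1, enzymes that oxidise 5-methylcytosine in DNA, fell by 0.57 and 0.37 (limma adjusted p = 0.000395 and 0.00350). Zmym2, a zinc finger protein, Kdm1a, a histone demethylase, and Gatad2b, a subunit of the NuRD complex, fell by 0.41, 0.32 and 0.27. Chd4, the ATPase of NuRD, had 30.4 and 27.4 in KO, against 32.2 and 32.8 in WT, and did not pass (limma adjusted p = 0.103).

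No chromosomal neighbour of Nanog that could be tested was called lower. Of the 5 neighbours that passed the coverage filter, 1 rose and 4 did not pass the test. Dppa3, a maternal factor of the early embryo and of naive cells, had an input coverage of 42.6 and 48.2 in KO, against 12.8 and 15.6 in WT and 6.28 in the first input, and rose by 1.62 (limma adjusted p = 8.13e-06). Gdf3, a TGF-beta family ligand, had 21.0 and 19.1 in KO, against 16.2 and 18.1 in WT (limma adjusted p = 0.0585). Slc2a3, a glucose transporter, had 164 and 160 in KO, against 172 and 173 in WT, a change of −0.085. Apobec1, a cytidine deaminase, and Foxj2, a forkhead factor, had changes of −0.15 and 0.089 and did not pass. C3ar1, a complement receptor, stayed under 1 in every input.

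By the mean absolute difference of centred log2 input coverage over the 5 inputs, the genes most like Nanog among 273 of similar coverage were Mybl2 (0.0461), a Myb family factor, Tdgf1 (0.0555), a Nodal co-receptor, Spp1 (0.0614), secreted osteopontin, Vdac1 (0.0660), a channel of the outer mitochondrial membrane, and Hspa5 (0.0675), a chaperone of the endoplasmic reticulum. They were chosen for this likeness, so their levels carry no test. Tdgf1, for example, had 218 and 214 in KO, against 292 and 313 in WT and 323 in the first input. By winscore in the 5 pairs, the regions most like windows 3 to 6 among 9473 were those of Ube2e3 (0.135), an E2 ubiquitin-conjugating enzyme, Zfp518b (0.136), a zinc finger protein, Crcp (0.152), Ilvbl (0.159) and Dynll2 (0.160), a dynein light chain. The Ube2e3 region had 1.79 and 1.93 in KO, against 2.90 and 3.36 in WT and 2.52 in the first pair.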

How the data were processed

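Per the submitters' processing notes, reads were aligned with TopHat 1.1.3 to mm9; the labels' protocols describe stranded dUTP libraries, and the coverage scaling factor is not given in the sources used here. The deposited window files hold the authors' scaled coverage (signal) and winscores on a log2 scale, which were recomputed from the coverage columns within 1e-06 in all 1510223 windows of each file. The authors' RPKM table was used only as an alternative. RefSeq supplied names, strand, the gene positions used for overlap and nearby genes, and the gene lengths behind the window width. It supplied no coordinates for the windows.

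Tests used limma 3.58.1 (lmFit, eBayes with trend; R 4.3.3) over KO and WT with no covariates and Benjamini-Hochberg adjustment over all features. Transcript level was log2(mean input coverage + 1), over genes that reached 1 in 2 or more inputs. Ratios were log2((IP + 1)/(input + 1)), centred per library on the median of 5974 genes' windows outside regions, or over genes for the whole-gene ratio, in regions with a mean input of at least 1. Windows were counted at a mean input of at least 5. The fits were tested on simulated data. Alternatives covered measure, pseudocount, filters, scaling, region threshold and summary, replicate block and each replicate left out. The first pair has no replicate and entered no test. Coverage is not a read count, so no counting interval is given.

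Named genes were Mettl3, the chromosomal neighbours (1 is not reported here), up to 5 members per list by smallest p, and the 5 genes and 5 regions most like Nanog, besides list members named as examples after their values were seen. Nanog, the lists and the tests were chosen with earlier results of these data known.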

Additional observations from a re-analysis of the deposited data

How the results depend on the processing

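Every alternative for the 2 regions and the whole-gene ratio left the difference below 0. The transcript change kept its sign in 9 of 10 alternatives and its call in 8 of them; with RPKM it was 0.47 (limma adjusted p = 0.0314), and with no filter on low genes −0.35 with adjusted p = 0.201, where 30419 genes were tested. Leaving out each replicate in turn gave −0.42 to −0.28 for the transcript, −0.70 to −0.49 for the whole-gene ratio, −1.44 to −1.12 and −1.29 to −1.0 for the ratio of windows 3 to 6 and 8 to 9, and −1.59 to −1.11 and −1.13 to −0.65 for their winscores. Among the ratio and winscore fits, the whole-gene ratio passed only without KO replicate 1 (−0.70) and the region ratios only without KO replicate 2 (−1.44 and −1.20). The cause was not tested. The replicate numbers pair only 2 libraries a group and no label ties them to a shared culture. With the replicate block the transcript change was −0.35 (adjusted p = 0.00963), the whole-gene ratio −0.59 (0.303), the region ratios −1.28 and −1.15 (0.307 and 0.295) and the winscores −1.35 and −0.89 (0.582 and 0.764), and it changed no Nanog call. Counts of calls moved more: for transcripts, 1522 lower and 1455 higher became 12 and 3 with no filter, 930 and 1000 at a minimum of 5 and 2954 and 5011 in RPKM. Without WT replicate 1 they were 984 and 759, and without WT replicate 2 they were 822 and 1108. For region winscores 0 became 47 lower and 13 higher with the replicate block, 254 and 90 without KO replicate 1 and 732 and 489 without KO replicate 2; for region ratios 664 and 64, and 2049 and 226; for whole-gene ratios 300 and 342, and 979 and 1046. Joining both regions into windows 3 to 9, an alternative chosen after seeing the data, gave −1.15 in ratio and −1.12 in winscore. A threshold of 3 gave no Nanog region and so no value. Depth limits the KO and WT 2 IP libraries, at 0.0606 to 0.0712 of the first IP.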

Other observations

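Among 13 genes of the m6A machinery, 12 were found under these names and passed the coverage filter, 2 transcripts fell, 2 rose and 8 did not pass, beside 13.6% of all genes tested called lower and 13.0% called higher. Besides Mettl3, Zc3h13, a subunit of the writer complex, fell by 0.36 (limma adjusted p = 0.0152). Ythdf1, a cytoplasmic reader of m6A, had an input coverage of 36.6 and 35.8 in KO, against 30.9 and 31.0 in WT, and rose by 0.22 (limma adjusted p = 0.0264). Fto, a demethylase, had 10.7 and 10.1 in KO, against 8.51 and 9.18 in WT, and rose by 0.22 (limma adjusted p = 0.0446). Mettl14, the partner of Mettl3, had 7.85 and 8.46 in KO, against 7.77 and 7.84 in WT, and did not pass.

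Of 10 early lineage genes, 2 passed the coverage filter and neither was called. Otx2, a factor of the primed state, had an input coverage of 1.02 and 1.02 in KO, against 0.747 and 0.769 in WT (limma adjusted p = 0.0984), and Eomes had 1.33 and 1.29 in KO, against 1.36 and 1.36 in WT. The other 8, among them the endoderm factors Gata6 and Sox17, were too low to test. In the genes of the Nanog-bound proteins, 27 of 31 regions had a lower KO mean ratio, against 77.6% of all regions, with a median difference of −0.58, against −0.45 over all regions, and a range of −1.33 to 0.85.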
